A study of Mus musculus with 9 samples.

Results

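Caveolae are small flask-shaped pits of the plasma membrane. Caveolin 1 inserts into the inner leaflet and assembles into oligomers, and the cavins then wrap the bulb as a peripheral coat, so that pits form only where caveolin and cavin 1 are both made. The pits buffer membrane tension and hold receptors and signalling enzymes, and in stratified epithelia Cav1 is found mainly in basal cells. The 7 genes described here encode the caveolins Cav1 and Cav2, the cavins Cavin1, Cavin2 and Cavin3, and the neck proteins Ehd2 and Pacsin2. Each of the 7 symbols occurred once among 15446 uniquely named genes of the deposited table, and each passed the filter of a mean of 1 FPKM that left 6965 genes for testing. Cav1 was picked for its high values in both knockouts against the control, and the others for their known part in the caveola coat or neck, with earlier results of these data known. Differences of the 7 genes from the control are therefore given as a description, and calls against the control only as counts beside the share over all tested genes. The comparison that rests on a test is the one between the knockouts.

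RNA came from ROC6, a mouse oral squamous cell line grown in DMEM with serum. There were 3 libraries of a Csmd3 knockout made with guide 2, 3 of a Csmd3 knockout made with guide 1, and 3 of a control labelled WT Control. The series text calls the knockouts clone 1 and clone 2, so each guide appears to stand for 1 clone, and an effect of the clone cannot be told apart from one of the knockout. No label names separate cultures for the 3 libraries of a group, and the p-values therefore rest on a spread that may be only technical. Csmd3 was not analysed here. Values are FPKM, fragments scaled to transcript length and to the mapped total, so levels can be set side by side across genes.

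Per library, the uniquely named genes added up to between 162625 and 168620 FPKM. Absolute depth is unknown. Steps of the values under 0.1 FPKM put the depth of the libraries between 0.774 and 1.21 times that of the first guide 1 library. The means of both knockouts lay on 1 side of the control mean in all 6965 tested genes, so a direction shared by both knockouts is a property of the rows analysed here. Shares over all tested genes likewise describe these rows and not the whole transcriptome. A gene without a row was unmeasured here, and nothing is said of its expression. Of 18 squamous epithelium markers 9 had a row and 4 passed the filter, and the sum of the 9 was 94.0 to 99.3 FPKM with guide 2, 132.2 to 143.0 FPKM with guide 1 and 82.0 to 90.1 FPKM in the control. Perp, a desmosome-associated membrane protein, stood at 83.4 ± 2.96 FPKM in guide 2 cells, 104.9 ± 4.15 FPKM in guide 1 cells and 79.1 ± 3.84 FPKM in control cells (SD, n = 3 each), while the keratins Krt15, Krt16 and Krt17 had group means of at most 0.735 FPKM. Jup, the junctional protein plakoglobin, rose with both guides, to 7.99 ± 0.633 FPKM with guide 2 and 20.8 ± 0.991 FPKM with guide 1, against 3.09 ± 0.112 FPKM in the control (limma adjusted p = 1.23e-07 and 4.5e-10). Jup was named because it passed this test with both guides, so these p-values are a description. The integrin Itga6 stood at 2.34, 9.49 and 2.23 FPKM and Sfn at 1.61, 2.99 and 1.03 FPKM in the means of guide 2, guide 1 and control. Itgb4 of the same list, under the filter, was lowest with guide 1, at 0.612, 0.309 and 0.843 FPKM in the same order. The keratins Krt5 and Krt14 and the basal transcription factor Trp63 were not analysed here, so the labelled cell type could be checked only in part.

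The promoters of both caveolins and of a pair of cavins are shown first, because the results compare these coat genes with each other. Cav1 and Cav2 lie next to each other on chromosome 6 with no annotated gene between them and both stood higher in the knockouts, Cavin1 was higher with both guides by about the same amount, and Cavin2 was the member that was lower with guide 2. Each sequence runs 5′ to 3′ from 250 bases before to 50 bases after an annotated start, from RefSeq on GRCm38.p6, and capitals mark matches to the searched motifs.
Cav1 (chr6:17306085-17306384, plus strand): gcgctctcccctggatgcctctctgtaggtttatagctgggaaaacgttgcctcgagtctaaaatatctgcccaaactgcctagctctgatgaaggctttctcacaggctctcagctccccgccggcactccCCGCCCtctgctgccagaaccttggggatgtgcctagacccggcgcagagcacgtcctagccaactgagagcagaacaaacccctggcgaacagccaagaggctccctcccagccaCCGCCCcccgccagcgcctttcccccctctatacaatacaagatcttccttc
Cav2 (chr6:17280935-17281234, plus strand): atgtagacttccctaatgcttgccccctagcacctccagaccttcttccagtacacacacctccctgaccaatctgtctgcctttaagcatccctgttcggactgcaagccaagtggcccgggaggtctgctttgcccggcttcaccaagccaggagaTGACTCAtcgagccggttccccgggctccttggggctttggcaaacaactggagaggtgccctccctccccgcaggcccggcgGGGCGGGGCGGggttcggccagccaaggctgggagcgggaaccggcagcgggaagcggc
Cavin1 (chr11:100970568-100970867, minus strand): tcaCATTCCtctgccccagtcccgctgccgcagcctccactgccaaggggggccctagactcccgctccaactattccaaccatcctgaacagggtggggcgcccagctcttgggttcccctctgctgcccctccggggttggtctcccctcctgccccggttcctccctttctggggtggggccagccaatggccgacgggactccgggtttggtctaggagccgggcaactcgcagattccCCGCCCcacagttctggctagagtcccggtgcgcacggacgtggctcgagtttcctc
Cavin2 (chr1:51288876-51289175, plus strand): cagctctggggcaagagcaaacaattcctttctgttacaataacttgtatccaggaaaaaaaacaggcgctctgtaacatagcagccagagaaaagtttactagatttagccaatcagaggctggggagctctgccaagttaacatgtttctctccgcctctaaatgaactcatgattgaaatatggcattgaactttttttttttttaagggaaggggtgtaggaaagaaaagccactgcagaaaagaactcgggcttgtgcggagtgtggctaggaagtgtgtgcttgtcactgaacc

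The motifs searched on both strands were the TEAD motif GGAATG, the AP-1 motif TGANTCA, the GC box GGGCGG and the CArG box. In the Cav1 window shown, the capitals are 2 GC boxes on the minus strand. The Cav2 window held an AP-1 match and 2 GC boxes, which overlap each other. The Cavin1 window held a TEAD match near its far end and a GC box near the start. The Cavin2 window held none of the 4 motifs. Among all 32851 promoter windows of the same length, 14.7% held the TEAD motif, 7.81% the AP-1 motif, 35.7% the GC box and 1.63% the CArG box. In all, 6 of the 7 genes had at least 1 window, 10 windows in total. Cavin3 is the other gene. The windows of Ehd2 and Pacsin2 are not printed, and GC boxes lay near the start of Ehd2 and of 1 Pacsin2 window too. A second Cav1 window and 1 Pacsin2 window held no match, and the AP-1 motif also occurred in 1 of 3 Pacsin2 windows. A match describes letters only and says nothing of binding.

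**Figure D1:**
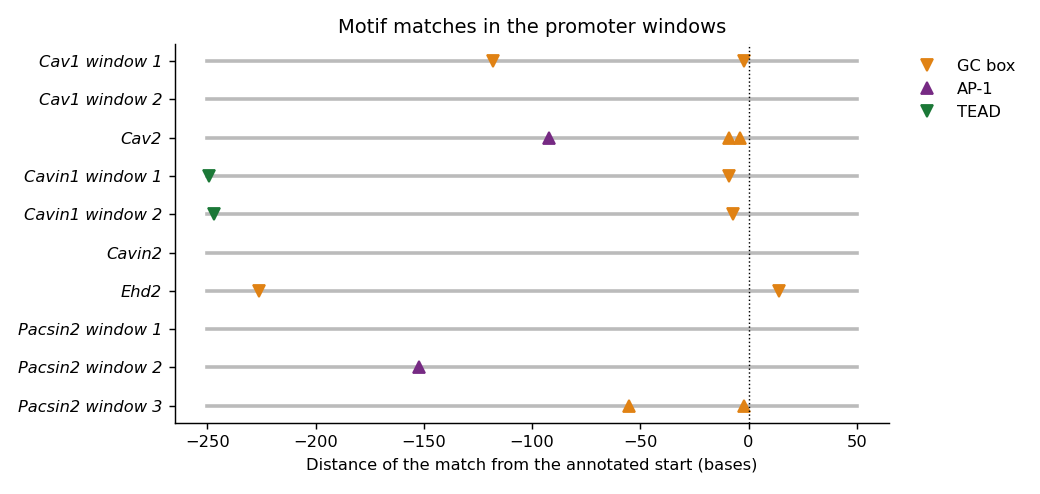
Matches to the TEAD, AP-1 and GC box motifs in the 10 promoter windows of 6 genes, by the distance of the first base of the match from the annotated start in bases. Triangles pointing up are matches on the gene's strand and those pointing down on the other strand. GC boxes lie near the start in Cav1 window 1, Cav2, both Cavin1 windows, Ehd2 and Pacsin2 window 3, and the lines of Cav1 window 2, Cavin2 and Pacsin2 window 1 are empty.

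Caveolin 1, which drives the formation of the pit, had the widest range of the 7 genes. Cav1 stood at 80.3, 81.9 and 81.5 FPKM in the guide 2 libraries, at 39.2, 34.8 and 38.2 FPKM in the guide 1 libraries, and at 5.78, 5.89 and 7.72 FPKM in the control libraries. No library of one group reached the range of another. In these bulk libraries, more cells with Cav1 and more Cav1 RNA per cell cannot be told apart. The group means were 12.6 times the control mean with guide 2 and 5.79 times with guide 1. On the log2(FPKM + 1) scale, which understates changes of low values, the differences from control were 3.47 and 2.37 (SE 0.0889 each). Between the knockouts Cav1 was higher with guide 2 by 1.10 log2 units (95% interval 0.90 to 1.30, limma adjusted p = 3.28e-06). Cav1 was the lowest of the 7 transcripts in the control and the second highest with guide 2.

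Cav2, which joins Cav1 in mixed oligomers and depends on it to leave the Golgi, had a smaller range in the same order. Cav2 stood at 28.5, 29.9 and 30.5 FPKM with guide 2, at 19.4, 16.7 and 17.8 FPKM with guide 1, and at 10.4, 9.97 and 10.1 FPKM in the control. The 3 groups did not overlap. The guide means were 2.92 and 1.77 times the control mean, for guide 2 and guide 1 in that order. Guide 2 exceeded guide 1 by 0.70 log2 units (95% interval 0.57 to 0.82, limma adjusted p = 4.02e-06). The ratio of Cav1 to Cav2 averaged 2.74 ± 0.0754 in guide 2 cells, 2.09 ± 0.0636 in guide 1 cells and 0.638 ± 0.114 in control cells (SD, n = 3 each), so Cav2 was the more abundant caveolin transcript in the control and the less abundant in both knockouts.

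The cavins went separate ways. Cavin1, the adaptor without which caveolae do not form, stood at 120.3, 118.8 and 117.2 FPKM with guide 2, at 127.7, 120.5 and 122.2 FPKM with guide 1, and at 79.4, 79.6 and 91.3 FPKM in the control. All 6 knockout libraries were above the 3 controls, by 1.42 times in the means with guide 2 and 1.48 times with guide 1. Between the knockouts Cavin1 did not pass the test, with a difference of -0.06 log2 units (95% interval -0.18 to 0.07, limma adjusted p = 0.433). The libraries of the knockouts did not overlap for Cavin1, though the gap between the highest guide 2 and the lowest guide 1 value was under 1 FPKM.

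Cavin2 was lower with guide 2 than in the control, the side opposite to Cav1. This phosphatidylserine-binding cavin shapes the membrane and brings Cavin1 to the pit. Its values were 41.6, 42.8 and 44.7 FPKM with guide 2, 82.6, 77.6 and 84.9 FPKM with guide 1, and 88.1, 83.1 and 82.8 FPKM in the control. The guide 2 libraries lay below all others, at 0.508 times the control mean, while guide 1 and control libraries overlapped. The difference of guide 1 from control was -0.05 log2 units, and that of guide 2 was -0.96 (SE 0.0494 each). Between guide 2 and guide 1 Cavin2 was lower with guide 2, with a difference of -0.91 log2 units (95% interval -1.02 to -0.80, limma adjusted p = 1.94e-07). The summed level of 13 muscle markers, 7 with a row and 1 tested, was also lowest with guide 2. It was 82.9 to 84.7 FPKM with guide 2, 191.9 to 195.1 FPKM with guide 1 and 196.2 to 200.9 FPKM in control cells. Nearly all of that sum was Cnn1, a calponin of smooth muscle, at 83.4 ± 0.821, 193.0 ± 1.72 and 198.7 ± 2.41 FPKM in guide 2, guide 1 and control (SD, n = 3 each). The sum therefore describes Cnn1 and not a set of muscle genes. Under the filter, Myh11 had means of 0.0313, 0.0199 and 0.0134 FPKM and Casq1 0.159, 0.223 and 0.278 FPKM in the same order. Ckm, Myh4 and Actn2 were above 0 only in control replicate 2, at no more than 0.0908 FPKM. Eno3, the muscle form of enolase, and Myl9, a myosin light chain, are not on that list and were higher with both guides, as given below. The part of Cnn1 in the Cavin2 result was not tested.

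Cavin3, which links caveolae to signalling and binds Cavin1 in complexes separate from those with Cavin2, stood at 43.8, 41.0 and 38.2 FPKM with guide 2, at 30.5, 30.9 and 31.4 FPKM with guide 1, and at 27.7, 23.5 and 25.7 FPKM in the control. Its 3 groups did not overlap. The means were 1.60 and 1.21 times the control mean for guide 2 and guide 1. Guide 2 exceeded guide 1 by 0.39 log2 units (95% interval 0.25 to 0.54, limma adjusted p = 0.000554). The ratio of Cavin2 to Cavin3 averaged 1.05 ± 0.110 in guide 2 cells, 2.64 ± 0.117 in guide 1 cells and 3.31 ± 0.196 in control cells (SD, n = 3 each). In the guide 2 libraries it was 0.950, 1.04 and 1.17, so these transcripts stood near parity there.

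The transcripts of both neck proteins were higher in all knockout libraries than in any control library. Ehd2, a membrane-remodelling ATPase that rings the neck and holds the pit at the surface, stood at 47.4, 50.1 and 50.6 FPKM with guide 2, at 49.6, 46.5 and 50.1 FPKM with guide 1, and at 29.5, 26.4 and 26.9 FPKM in the control. Both knockouts lay above the control and overlapped each other. Their means were 1.79 and 1.76 times the control mean, for guide 2 and guide 1. Between the knockouts Ehd2 did not pass the test, with a difference of 0.02 log2 units (95% interval -0.10 to 0.14, limma adjusted p = 0.794).

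Pacsin2, an F-BAR protein that bends the neck membrane, stood at 35.9, 35.5 and 34.8 FPKM with guide 2, at 31.4, 30.1 and 31.8 FPKM with guide 1, and at 17.7, 16.3 and 19.0 FPKM in the control. The 3 groups did not overlap, and the means were 2.00 and 1.76 times the control mean for guide 2 and guide 1. Guide 2 exceeded guide 1 by 0.18 log2 units (95% interval 0.06 to 0.31, limma adjusted p = 0.0196). That call was lost without guide 1 replicate 2, guide 2 replicate 1 or guide 2 replicate 2, at limma adjusted p = 0.0694, 0.0513 and 0.0542, in a range of 0.00695 to 0.0694 over all alternatives.

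**Figure D2:**
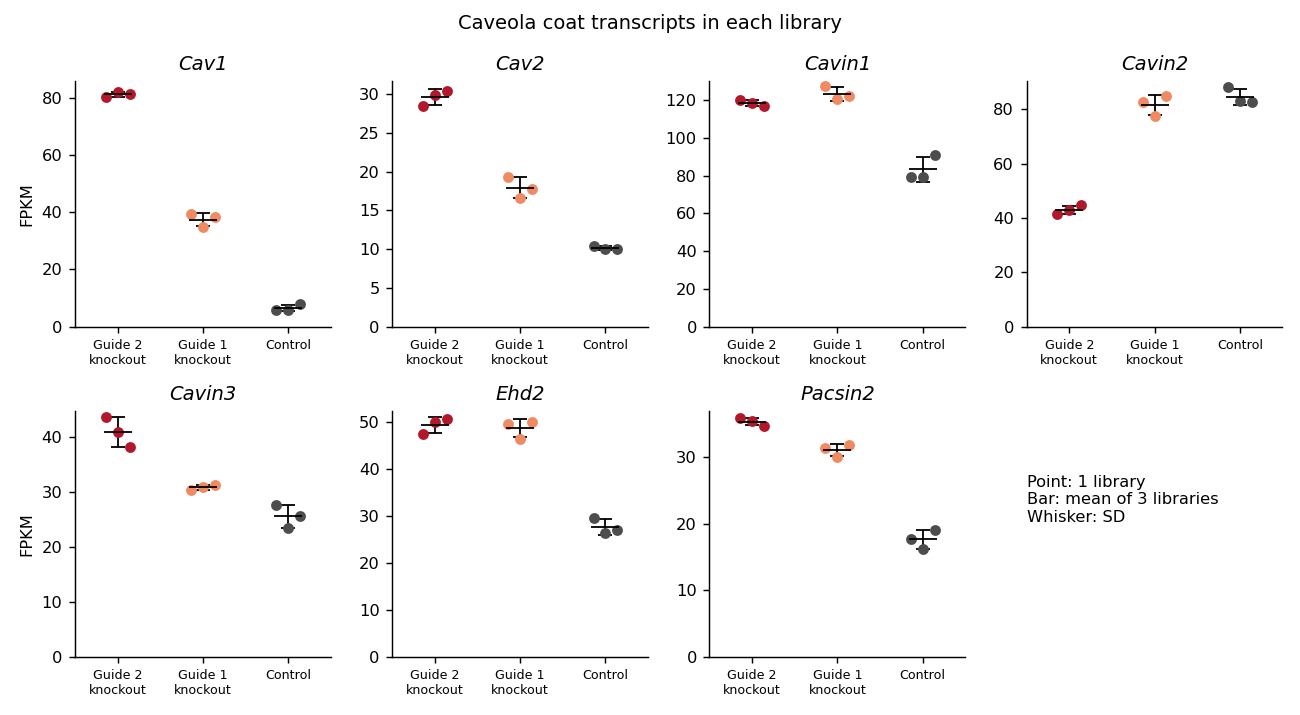
FPKM of the 7 genes in each of the 9 libraries, by group, with the mean and SD of 3 libraries. Cav1 and Cav2 descend from guide 2 through guide 1 to control, Ehd2 and Cavin1 are close in both knockouts, and Cavin2 is low with guide 2, at 41.6 to 44.7 FPKM.

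Set side by side, 6 of the 7 genes stood higher than the control with each guide, and Cavin2 did not. The fit over all genes (limma, adjusted p under 0.05) called 6 of them higher and 1 lower with guide 2, and 6 higher and 0 lower with guide 1, counts that are a description here. Of all tested genes 65.4% were called with guide 2, 31.9% higher and 33.5% lower, and 68.1% with guide 1, 30.2% higher and 37.9% lower. Genes called higher with each guide made up 22.6% of those tested and genes called lower with each 26.2%, and all 6 knockout libraries lay above the 3 controls in 24.7%. Nothing is read from the members' counts, since Cav1 was chosen on this contrast and both comparisons share the control libraries. The median log2 difference of the 7 genes was 0.82 with guide 2 and 0.76 with guide 1, against -0.03 and -0.04 over all tested genes. These medians too are only a description, since the 7 genes were chosen with earlier results known.

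Between the knockouts, where the control cancels, 4 of the 7 genes were called higher with guide 2 and 1 lower. Of all tested genes 54.5% were called in this comparison, 31.2% higher and 23.3% lower, and the libraries of the knockouts did not overlap in 61.5%. The members called higher were Cav1, Cav2, Cavin3 and Pacsin2, in falling order of size, and Cavin2 was lower. Those 4 were also called higher than the control with each guide, a combination found in 6.45% of tested genes. Nothing is read from this count either, since it includes the contrast on which Cav1 was chosen. Of the 6 coat and neck genes 3 differed between the knockouts in the direction of Cav1, 1 in the other direction, and 2 did not pass. So few genes cannot set these counts apart from the 54.5% of all tested genes that were called. The median difference of the 7 genes was 0.18 log2 units, against 0.04 over all tested genes.

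**Figure D3:**
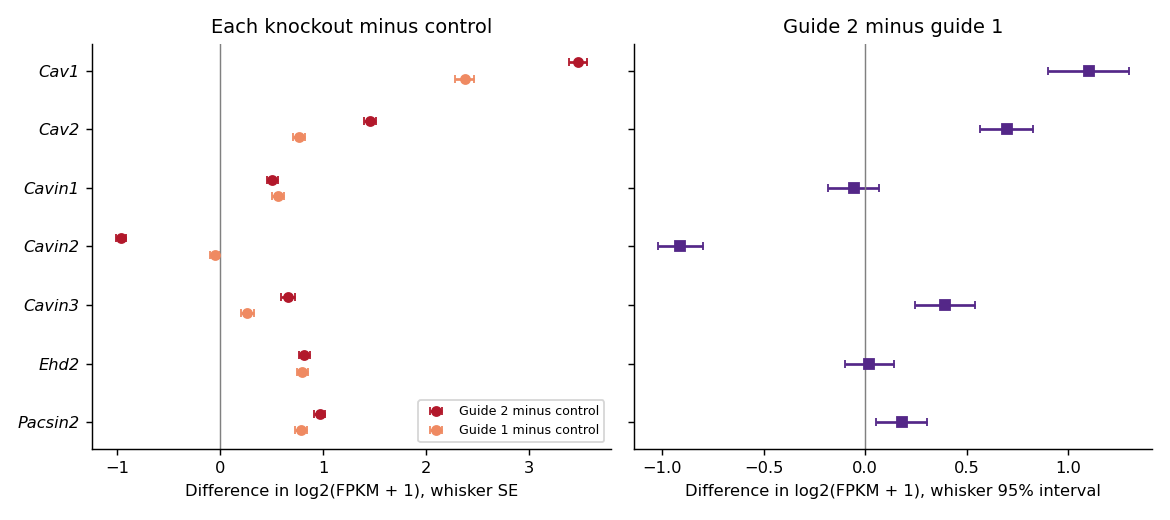
Differences in log2(FPKM + 1) of the 7 genes, on the left each knockout minus control with the SE and on the right guide 2 minus guide 1 with the 95% interval. On the left Cav1 lies at 3.47 and 2.37 and Cavin2 at -0.96 and -0.05 for guide 2 and guide 1, and on the right the intervals of Cavin1 and Ehd2 span 0.

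The proportions among the transcripts shifted with these differences. The summed level of the 7 genes was 398.4 ± 1.41 FPKM in guide 2 cells, 371.3 ± 12.4 FPKM in guide 1 cells and 255.6 ± 9.71 FPKM in control cells (SD, n = 3 each). Cav1 made up 20.4% ± 0.175 of the sum with guide 2, 10.1% ± 0.291 with guide 1 and 2.52% ± 0.362 in control cells. Cavin2 made up 10.8% ± 0.401, 22.0% ± 0.491 and 33.2% ± 1.50 in the same order of groups. Cavin1 kept to a narrow range, at 29.8% ± 0.388 with guide 2, 33.3% ± 0.695 with guide 1 and 32.6% ± 1.98 in control cells.

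**Figure D4:**
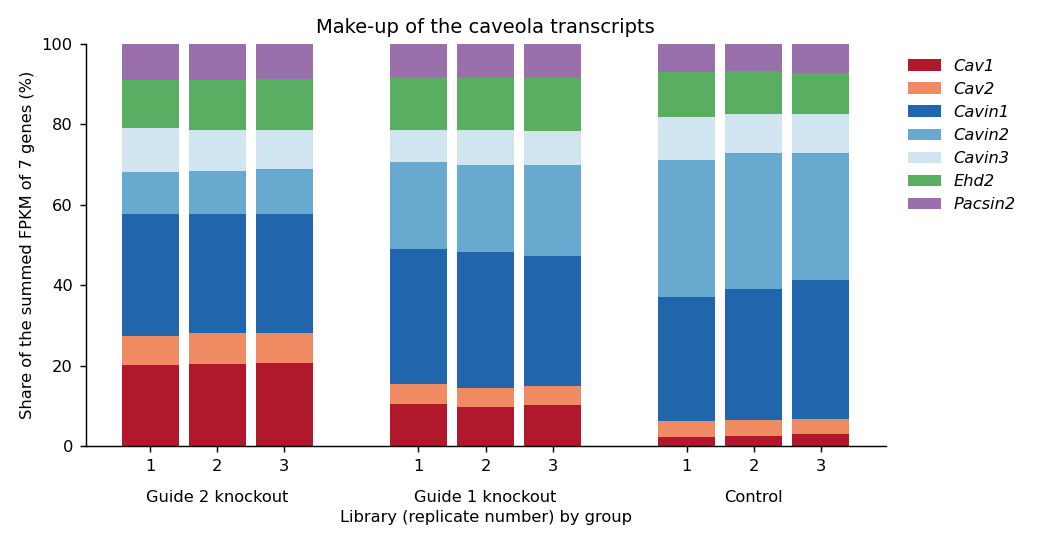
Share of each gene in the summed FPKM of the 7 genes, in percent, for each library. The Cav1 share is 20.2 to 20.5% with guide 2, 9.75 to 10.3% with guide 1 and 2.23 to 2.93% in control cells, and the Cavin2 share is smallest with guide 2.

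The ratios of the 6 other transcripts to Cav1 lay in separate ranges in the 3 groups, with no overlap of libraries for any gene. Cavin1 transcripts were 1.46 ± 0.0315 per Cav1 transcript in guide 2 cells, 3.30 ± 0.139 in guide 1 cells and 13.0 ± 1.04 in control cells, as ratios of FPKM (SD, n = 3 each). For Ehd2 the ratios were 0.608 ± 0.0155, 1.30 ± 0.0364 and 4.36 ± 0.816 in the same order of groups. Between the knockouts the log2 ratio to Cav1 was lower with guide 2 for all 6 genes, with differences of -0.39 for Cav2, -0.72 for Cavin3, -0.93 for Pacsin2, -1.10 for Ehd2, -1.18 for Cavin1 and -2.05 for Cavin2. In each case all 3 guide 2 libraries lay below all 3 guide 1 libraries, with a two-sided exact permutation p = 0.1, the smallest that 3 against 3 libraries allow, and 0.1 after Benjamini-Hochberg adjustment over 6 genes. These tests share the Cav1 values and could not have passed 0.05. Cav1 was itself higher with guide 2, so any gene that rose less than Cav1 has a lower ratio there. The ratios in the control likewise hold the rise for which Cav1 was picked. How many of all tested genes have a lower ratio to Cav1 was not computed, so the ratios are a description.

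**Figure D5:**
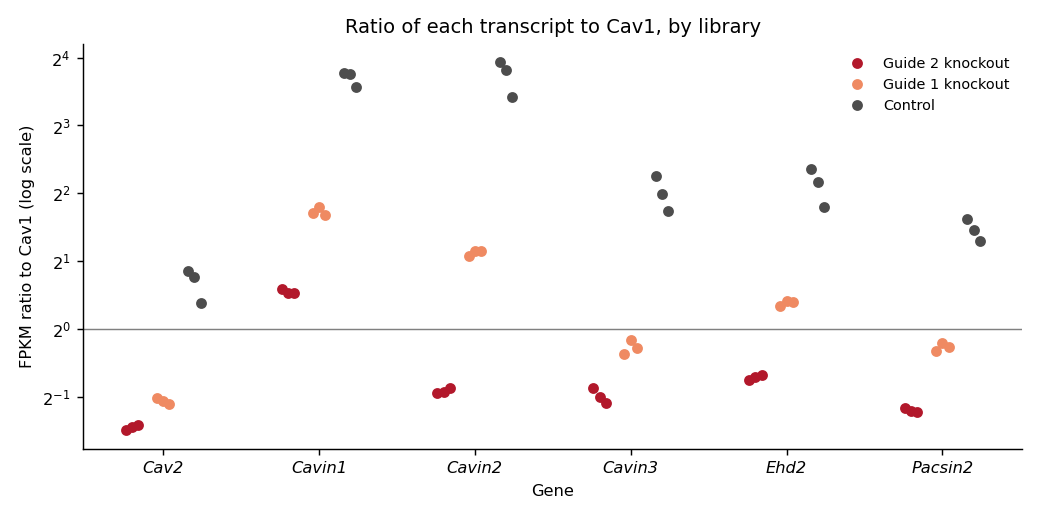
Ratio of the FPKM of each other gene to that of Cav1 in the 9 libraries, on a log scale with a line at parity. For every gene the guide 2 points lie below the guide 1 points and these below the control, and with guide 2 only Cavin1 stays above parity, at 1.44 to 1.50.

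Likeness to Cav1 over the 9 libraries was measured by the root mean square difference of log2(FPKM + 1) after centring each gene. The 4355 genes compared averaged at least 5 FPKM, leaving out Cav1 and genes with predicted-gene, RIKEN or pseudogene names. The nearest was Ntn1, the secreted guidance protein netrin 1, at a difference of 0.19 log2 units, with 17.4 ± 1.36 FPKM in guide 2 cells, 7.98 ± 0.648 in guide 1 cells and 1.16 ± 0.0998 in control cells (SD, n = 3 each). Next came Ptgs2, the inducible prostaglandin synthase, at 0.27, and Eno3, the muscle form of enolase, at 0.30. Eno3 stood at 196.1 ± 1.61 FPKM in guide 2 cells, 59.1 ± 2.21 in guide 1 cells and 15.2 ± 1.74 in control cells (SD, n = 3 each). Myl9, a myosin light chain, followed at 0.39 and Tspo, a cholesterol-binding protein of the outer mitochondrial membrane, at 0.43. The coat genes were farther away than these. The measure counts a smaller change in the same direction as a difference. It also includes the rise over the control for which Cav1 was picked, so the ranks among the 4355 genes are a description. Cav2 ranked 57 in likeness to Cav1 with a difference of 0.88, Pacsin2 126, Ehd2 186, Cavin3 409 and Cavin1 494, and Cavin2 ranked 4086.

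Other genes tied to caveolae went both ways. Those named with p-values here and in the next paragraph were picked for passing the test against the control with both guides. Their p-values are therefore a description. Of 7 paralogs of the coat and neck genes only Ehd3 had a row, at no more than 0.326 FPKM in any group mean, and Cav3, Cavin4, Ehd1, Ehd4, Pacsin1 and Pacsin3 were not analysed here. Of 15 kinases, traffic and turnover genes of caveolin 9 had a row and 7 were tested, of which 2 rose and 3 fell with each guide, against 22.6% of all tested genes higher and 26.2% lower with each guide. Yes1, a Src family kinase, fell to 6.48 ± 0.458 FPKM with guide 2 and 6.19 ± 0.368 FPKM with guide 1, against 10.1 ± 0.538 FPKM in the control (SD, n = 3 each, limma adjusted p = 2.54e-05 and 1.04e-05). Vcp, an ATPase that takes part in caveolin turnover, fell to 112.0 ± 4.62 and 133.5 ± 1.67 FPKM, against 173.0 ± 8.99 FPKM in the control (limma adjusted p = 1.47e-06 and 5.88e-05). The medians of the 7 were 0.03 with guide 2 and 0.02 with guide 1.

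Of 22 receptors and channels reported in caveolae 10 had a row and 9 were tested, of which 2 rose and 3 fell with each guide, shares near the 22.6% and 26.2% of all tested genes. Scarb1, the HDL receptor, fell to 16.6 ± 0.284 FPKM with guide 2 and 11.5 ± 0.738 FPKM with guide 1, against 34.8 ± 3.50 FPKM in the control (SD, n = 3 each, limma adjusted p = 7.08e-07 and 2.94e-08). Cd44, the hyaluronan receptor, rose to 69.1 ± 4.60 and 48.1 ± 2.78 FPKM, against 32.3 ± 2.69 FPKM in the control (limma adjusted p = 4.48e-07 and 4.68e-05). Clathrin, the coat of the other main endocytic pit, gave 19 tested genes of 29 listed and 20 with a row, of which 2 rose and 6 fell with each guide, beside the same 22.6% and 26.2%. The medians were 0.04 with guide 2 and 0.06 with guide 1. Dab2, a clathrin adaptor, fell to 5.75 ± 0.258 FPKM with guide 2 and 9.88 ± 0.649 FPKM with guide 1, against 25.5 ± 0.413 FPKM in the control (SD, n = 3 each, limma adjusted p = 1.28e-09 and 1.36e-08), and Hip1 fell by 0.71 and 0.79 on the log2 scale. Stoml2 was the single tested gene of the flotillin and stomatin list. It was at 32.2 ± 1.86, 22.1 ± 1.76 and 34.7 ± 2.30 FPKM in guide 2, guide 1 and control (SD, n = 3 each).

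Markers of other cell types, among them those rich in caveolae, are given beside the Cav1 values, and their part in them was not tested. Twist2 was named for passing the test against the control with both guides, and Egfl7, Lipe and Cd68 after their values were seen. Their p-values are a description. The summed level of 13 endothelial markers, 6 with a row and 1 tested, was 3.44 to 3.76 FPKM with guide 2, 2.70 to 2.83 with guide 1 and 2.30 to 3.01 in control cells, with Vwf at 0 in all control libraries. Its members went different ways, with means in guide 2, guide 1 and control of 1.98, 1.61 and 1.05 FPKM for Egfl7, the tested one (limma adjusted p = 0.000263 and 0.00372 against control), 0.0569, 0.667 and 0.00501 FPKM for Kdr, and 0.850, 0.0334 and 1.47 FPKM for Erg. For 9 adipocyte markers, 3 with a row and 1 tested, the sum was 1.54 to 1.65, 2.46 to 2.69 and 1.52 to 1.86 FPKM. The members of this list went different ways. Plin4 had means of 0.259, 1.006 and 0.0143 FPKM in guide 2, guide 1 and control. Fabp4 had means of 0.163, 0.117 and 0.182 FPKM in the same order. Lipe, the tested one, had means of 1.17, 1.46 and 1.52 FPKM (limma adjusted p = 0.0268 and 0.678 against control). For 13 fibroblast markers, 5 with a row and 3 tested, the sum was 34.0 to 36.9, 32.1 to 35.0 and 29.1 to 31.3 FPKM, mostly from the homeobox gene Prrx1. Dpt was above 0 only in control replicate 2, at 0.0383 FPKM. Prrx1 fell with both guides, while Twist2, a mesenchymal transcription factor, rose to 5.60 ± 0.306 FPKM with guide 2 and 9.25 ± 2.00 FPKM with guide 1, against 2.51 ± 0.558 FPKM in the control (SD, n = 3 each, limma adjusted p = 0.000269 and 5.15e-06). The means in guide 2, guide 1 and control were 7.83, 1.61 and 1.30 FPKM for Postn and 0.827, 0.0307 and 0.0139 FPKM for Col1a2. For 12 leukocyte markers, 3 with a row and 1 tested, the sum was 2.05 to 2.67, 1.47 to 1.82 and 0.473 to 1.08 FPKM. Most of it was Cd68, the tested one, with means of 2.16, 1.35 and 0.652 FPKM in guide 2, guide 1 and control (limma adjusted p = 4.27e-05 and 0.00238 against control). Lyz2 was at 0 in all control libraries and at no more than 0.204 FPKM in any knockout library. Ranges with no group beside them are in the order guide 2, guide 1, control.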

How the data were processed

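Polyadenylated RNA of 9 libraries, in 3 groups of 3 by the sample titles, was sequenced in paired ends after a stranded preparation, per the labels' protocols. The authors deposited FPKM values, as named in the column headers. Tools listed in the submitters' processing notes are HISAT2, StringTie, cutadapt and FastQC, whose versions, like the build and annotation, the sources used here do not give. FPKM are not counts, so no count model was used.

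The table held 15620 rows, of which 174 that share 62 symbols were left out, and 8481 genes with a mean under 1 FPKM were not tested. No other per-sample columns and no identical libraries were found. Values were analysed as log2(FPKM + 1) in limma 3.58.1 (R 4.3.3), in 1 fit of the 9 libraries whose prior variance followed the mean level. Calls were made at an adjusted p under 0.05 (Benjamini-Hochberg over all 6965 tested genes). The fit was tested on simulated data with independent noise at the spread within groups. That test cannot speak to variation between clones or cultures. Ratios to Cav1 were compared with an exact permutation test. Promoter windows came from RefSeq on GRCm38.p6. Alternatives were a pseudocount of 0.1, other filters, quantile normalization, rescaling by trimmed means (30% off either end), the replicate number as a block, a prior variance that did not follow the mean, leaving out each library, and a fit of only the 6 libraries compared.

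The members, lists and motifs were chosen with earlier results of these data known. Named list genes had a mean of 5 FPKM or more and were called in 1 direction with both guides, the 2 largest per list. That choice fixed their p-values against the control to be under 0.05. The 5 genes nearest to Cav1 were named, predicted genes passed over. Stoml2, Cnn1, Myh11, Casq1, Perp, Itga6, Itgb4, Sfn, Egfl7, Kdr, Erg, Postn, Col1a2, Plin4, Fabp4, Lipe and Cd68 were named after their values were seen, as were marker genes at or near 0.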

Additional observations from a re-analysis of the deposited data

Results flagged for a closer look

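For 5 of the 7 genes the difference from the control was not the same with both guides, by the test of guide 2 against guide 1 over all tested genes. The differences in log2(FPKM + 1), guide 2 minus guide 1, were 1.10 for Cav1, 0.70 for Cav2, 0.39 for Cavin3, 0.18 for Pacsin2 and -0.91 for Cavin2. Of all tested genes, 54.5% differed in this way. The libraries of the guides did not overlap for these 5 genes or for Cavin1, which was not called, and did not overlap in 61.5% of all tested genes.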

How the results depend on the processing

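The counts of called members were 7 with guide 2 and 6 with guide 1 under all 17 alternatives, and 4 or 5 between the guides, where 4 came from the loss of Pacsin2 when 1 of 3 knockout libraries was left out. The differences of Cav1, Cav2, Cavin1, Cavin3, Ehd2 and Pacsin2 from the control kept their sign in every alternative. The difference of Cavin2 between guide 1 and control turned to 0.0018 after quantile normalization. That of Ehd2 between the guides, which was not called, turned to -0.031 after quantile normalization and to -0.0096 after trimmed mean rescaling, and lay between -0.013 and 0.047 with a library left out, below 0 only without guide 1 replicate 2. The cause was not tested. The 6 ratios to Cav1 kept their sign in all 7 alternatives. With the replicate number as a block, 4559, 4764 and 3784 genes were called for guide 2 and guide 1 against control and guide 2 against guide 1, where 4557, 4745 and 3793 were called without it, and no member's call changed. Same-numbered libraries had deviations that correlated at -0.11 to 0.24 across genes, and a library correlated best with its own number in 9 of 18 cases, 5 of 6 between the guides and 2 of 6 for each guide with the control. Between the guides the same-number values were 0.24, 0.022 and 0.21, a hint of pairing from the data that no label states. Where leaving out a library left 2 in a group, the spread was pooled over the groups. Counting error could not be given from FPKM.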

Other observations

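Plvap, the protein of the diaphragm that spans the neck of endothelial caveolae, had a mean under the filter and was not tested. It stood at 0.711 ± 0.0813 FPKM with guide 2, 0.375 ± 0.121 FPKM with guide 1 and 0.0736 ± 0.0858 FPKM in the control (SD, n = 3 each). Aqp1, a water channel reported in caveolae, was at 3.41 ± 0.187 FPKM with guide 2, 14.5 ± 1.58 FPKM with guide 1 and 3.26 ± 0.810 FPKM in the control. Both genes were chosen after their values were seen.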
